A study of Homo sapiens with 9 samples.

Results

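The insulin-like growth factor (IGF) system was followed by mRNA sequencing of 9 tumours grown from Huh-7, a cell line of human hepatocellular carcinoma. The 10 genes described were chosen by name and not by a rule on their values, but with earlier results of these data known. They are the ligand genes IGF1 and IGF2, the binding protein genes IGFBP1, IGFBP2, IGFBP3, IGFBP4 and IGFALS, and the receptor genes IGF1R, IGF2R and INSR. Each had 1 row among the 50868 genes of the table. Of the 10, 7 passed the filter on low counts and entered the test with 16697 genes in all. The other 3, IGF1, IGFBP1 and IGFALS, had too few counts and are given by their counts.

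Huh-7 cells had been placed under the skin of NOD/SCID mice, which lack functional lymphocytes. Once tumours measured about 100 mm3, adenovirus was injected into them every 4 days over 8 days. Control tumours received a vector for green fluorescent protein (Ad-GFP), and the others received one for HNF4A (Ad-HNF4A) or for its lysine-to-arginine mutant (Ad-K458R), with 3 libraries each. HNF4A is a nuclear receptor and a master regulator of the hepatocyte, and the series asks about the effect of the mutation in this cancer. All 9 tumours carried an adenovirus and have the genotype WT in the labels, and they can hold mouse cells of the host beside the human ones. Whether the numbered tumours of a group grew in different animals is not stated, and p-values therefore refer to the spread between libraries, which may be technical.

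IGF1 and IGF2 are small secreted proteins related to insulin. They act through the receptor tyrosine kinase IGF1R and through the insulin receptor INSR, while IGF2R, the cation-independent mannose 6-phosphate receptor, takes up IGF2 and delivers it to lysosomes. The binding proteins carry the ligands and hold them away from the receptors, and IGFALS, the acid-labile subunit, joins them in a long-lived complex in blood. In an adult the liver is the main source of circulating IGF1, IGFALS and IGFBP1. IGF2 is expressed in liver and often in hepatocellular carcinoma.

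Promoter windows, from 250 bases before to 50 bases after the start that RefSeq gives on GRCh38.p14, were held for 8 of the 10 genes. They are shown for IGFBP4 and INSR, the genes that passed the test below, and for IGF1, whose mRNA was nearly undetected. The windows are chr17:40443200-40443499 on the plus strand for IGFBP4, chr19:7294365-7294664 on the minus strand for INSR and chr12:102481698-102481997 on the minus strand for IGF1. Each is written 5′ to 3′ on the strand of its gene, and capitals mark letters of any of the 6 motifs searched. The INSR and IGF1 windows shown lie outside the genes as counted, whose rows end at 7294034 and 102480645. Another IGF1 window, chr12:102478501-102478800, lies inside its row and is not shown.
IGFBP4: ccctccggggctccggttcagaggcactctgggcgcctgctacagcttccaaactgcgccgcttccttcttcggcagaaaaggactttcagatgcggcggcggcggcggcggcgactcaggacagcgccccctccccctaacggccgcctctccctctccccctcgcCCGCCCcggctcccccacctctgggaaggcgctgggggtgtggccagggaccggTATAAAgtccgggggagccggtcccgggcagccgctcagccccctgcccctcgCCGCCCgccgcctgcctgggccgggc
INSR: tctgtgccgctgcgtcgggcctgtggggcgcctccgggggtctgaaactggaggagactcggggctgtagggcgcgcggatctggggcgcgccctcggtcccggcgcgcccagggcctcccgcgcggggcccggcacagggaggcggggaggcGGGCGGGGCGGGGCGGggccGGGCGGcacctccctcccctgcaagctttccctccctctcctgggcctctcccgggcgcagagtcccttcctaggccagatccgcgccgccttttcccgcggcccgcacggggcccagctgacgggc
IGF1: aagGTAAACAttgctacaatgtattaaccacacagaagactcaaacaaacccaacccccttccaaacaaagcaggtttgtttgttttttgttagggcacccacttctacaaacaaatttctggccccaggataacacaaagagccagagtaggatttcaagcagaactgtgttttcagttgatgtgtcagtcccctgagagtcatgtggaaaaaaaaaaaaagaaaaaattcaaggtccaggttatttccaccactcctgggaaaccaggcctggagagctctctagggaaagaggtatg

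The motifs were searched by exact letters on both strands. CAAAGTCCA, the form typical of HNF4A, was in 0.384% of all 35116 windows, and CAAAGGTCA, the form shared by many nuclear receptors, was in 0.407%. Neither was in a window of the 8 genes, which says only that these letters are not in these windows. The GC box GGGCGG was in 45% of all windows and in at least 1 window of IGFBP2, IGFBP3, IGFBP4, IGFALS, IGF1R, IGF2R and INSR. TATAAA, the core of a TATA box, was in 11.5% of all windows and among these genes in IGFBP4, 29 bases before the start. TGTTTAC, the core of a forkhead motif, was in 3.42% and among these genes in IGF1, while CAAAACA, a form of the insulin response element, was in 4.92% and in none of them. Matches were allowed to overlap, as GC boxes did in INSR and IGF2R. The windows of INSR and IGFBP4 held 78.3% and 74% G and C and the IGF1 window shown 42.3%, beside a median of 58.7% over all windows.

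Library totals ran from 15933702 to 23171796 counts. Levels are given as CPM, the count relative to a library total scaled by TMM. HNF4A mRNA, which checks the vectors, was at 154 to 182 CPM with Ad-GFP, 3500 to 5380 CPM with Ad-HNF4A and 4990 to 5480 CPM with Ad-K458R. On the second principal component (12.7% of the variance) 1 library, Ad-HNF4A replicate 1, lay at 46.1 and the others at -11.2 to 4.12. The 10 hepatocyte and hepatoma markers were all detected. They summed to 31300 to 32300 CPM with Ad-GFP, 31800 to 34400 CPM with Ad-HNF4A and 29300 to 29800 CPM with Ad-K458R, so every Ad-K458R library lay below the others. The largest part of the sum was AFP, at 13300 to 14500, 13400 to 15300 and 11700 to 12500 CPM. SERPINA1 was not lower with Ad-K458R, at 1740 to 1860 CPM beside 1630 to 1820 CPM with Ad-GFP. Of the 10, APOA1 was called higher with each vector and GPC3 lower with Ad-K458R.

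Of the 7 genes tested, IGFBP4 rose with both vectors, INSR rose with Ad-K458R, and none fell. With Ad-HNF4A, 1 of the 7 was called higher, where 3.16% of all tested genes were higher, and 0 of 7 were lower, where 0.305% of all were. With Ad-K458R, 2 of the 7 were called higher, beside 3.32% of all genes, and 0 were lower, beside 0.234%. Calls are adjusted p-values under 0.05 from the quasi-likelihood test of edgeR, with Benjamini-Hochberg adjustment over all genes tested. The median log2 fold change of the 7 was -0.10 with Ad-HNF4A and 0.35 with Ad-K458R, where all tested genes had medians of 0.006 and -0.004. With 7 genes each median is the value of 1 gene, IGF2R with Ad-HNF4A and INSR with Ad-K458R. With Ad-HNF4A 3 values were positive and 4 negative. With Ad-K458R 5 were positive and 2 negative, and among the positive ones IGF2 (0.77), IGFBP2 (0.53) and IGF2R (0.05) were not called. Both comparisons share the Ad-GFP libraries. Between the vectors none of the 7 was called in either direction, beside 0.00599% of all genes in each direction. That comparison called 2 genes of 16697 with edgeR, 60 with DESeq2 and 3 with limma-voom, while 1460 had an unadjusted p under 0.05 in edgeR.

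Among the ligands, IGF2 (ENSG00000167244, chromosome 11, 2129112 to 2141238, minus strand) was abundant and, of the 7 genes tested, had the largest spread between tumours of the same group. It stood at 952, 145 and 201 CPM in Ad-GFP replicates 1, 2 and 3, at 155, 138 and 772 CPM with Ad-HNF4A, and at 719, 779 and 715 CPM with Ad-K458R. The Ad-GFP and Ad-HNF4A groups each held libraries on both sides of a wide gap, with none between 201 and 715 CPM, and the 3 Ad-K458R libraries were all above it. The group means were 433 ± 451 CPM, 355 ± 361 CPM and 738 ± 35.7 CPM (SD, n = 3), and the groups overlapped. No difference passed the test. The log2 fold change over Ad-GFP was -0.28 ± 0.94 with Ad-HNF4A (SE, adjusted p = 0.92, edgeR). With Ad-K458R it was 0.77 ± 0.94 (adjusted p = 0.8, edgeR). Between the vectors it was 1.05, with a 95% interval from -1.22 to 3.33 (adjusted p = 0.82, edgeR). The sign for Ad-HNF4A rested on single libraries: it was 1.04 without Ad-GFP replicate 1, 0.07 and 0.10 without Ad-HNF4A replicates 1 and 2, and -1.56 without Ad-HNF4A replicate 3.

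The pooled within-group SD of IGF2 was 1.16 on the log2 CPM scale. The mean log2 CPM reached 5 or more in 6097 genes, of which 6 had a larger SD, and their median SD was 0.0976. Of these 6097 genes, 28 spanned at least 4-fold within a group, and they included PEG10, an imprinted gene of retrotransposon origin, and PRLR, the prolactin receptor. PRLR stood at 15.6 CPM in Ad-GFP replicate 2 and between 72.9 and 108 CPM in the other 8 libraries, so that Ad-GFP replicate 3 and Ad-HNF4A replicates 1 and 2, low in IGF2, were not low in PRLR. PEG10 and PRLR are named after their values were seen. Within Ad-HNF4A the library with the most IGF2, replicate 3, also had the most HNF4A mRNA, 5380 CPM beside 3690 and 3500 CPM. Within Ad-GFP the order differed: HNF4A mRNA was 154, 169 and 182 CPM where IGF2 was 952, 145 and 201 CPM. Within Ad-K458R HNF4A mRNA was 5400, 4990 and 5480 CPM where IGF2 was 719, 779 and 715 CPM. A link of IGF2 to the level of HNF4A was not tested.

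IGF2-AS, which overlaps IGF2 on the opposite strand, had 214 counts in all and ranged from 0.933 to 1.88 CPM over the 9 libraries. The protocol names no step that keeps the strand, so reads of the pair cannot be told apart where they overlap. INS-IGF2, a readthrough gene that shares exons with IGF2, and H19, its imprinted neighbour, were at 0 counts in every library and give no information on spread. For H19 a count of 0 allows up to 3 counts per library.

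IGF1 (ENSG00000017427, chromosome 12, 102395867 to 102480645) was nearly undetected, with 35 counts over the 9 libraries. Its group counts were 10 with Ad-GFP, 10 with Ad-HNF4A and 15 with Ad-K458R, and no library exceeded 0.334 CPM. Fitted without the filter on low counts, its log2 fold changes were 0.22 and 0.65 (adjusted p = 0.99 and 0.77, edgeR). HELLPAR, a non-coding RNA gene on the opposite strand that overlaps IGF1, had 1554 counts.

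Of the binding proteins, IGFBP4 (ENSG00000141753, chromosome 17, 40443461 to 40457731, plus strand) had the smallest adjusted p of the 7 genes with each vector. It encodes a secreted inhibitor of IGF action that the protease PAPPA cleaves. Its level was 18.1, 17.3 and 18.2 CPM in the Ad-GFP libraries, 35.5, 32.6 and 33.4 CPM with Ad-HNF4A, and 32.6, 32.2 and 29.7 CPM with Ad-K458R. All 6 libraries with HNF4A or K458R were above all 3 controls. Every Ad-K458R library was below every Ad-HNF4A library, though the nearest of the 2 vectors both round to 32.6 CPM. The log2 fold change was 0.92 ± 0.08 with Ad-HNF4A (SE, adjusted p = 1.1e-04, edgeR) and 0.82 ± 0.08 with Ad-K458R (adjusted p = 1.5e-04). Over the alternatives it ran from 0.86 to 0.95 and from 0.77 to 0.86, and it was called in each, also without Ad-HNF4A replicate 1 (0.88, adjusted p = 5.4e-04). Ad-K458R minus Ad-HNF4A was -0.10 on the log2 scale, with a 95% interval from -0.27 to 0.07 (adjusted p = 0.77, edgeR). No annotated gene overlapped IGFBP4.

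Cells other than hepatocytes also express IGFBP4, fibroblasts among them, and in bulk tumour RNA fewer cells of a type and less RNA per cell cannot be told apart. The 10 fibroblast markers summed to 114 to 119 CPM with Ad-GFP, 126 to 136 CPM with Ad-HNF4A and 120 to 133 CPM with Ad-K458R. Of the 7 tested, COL6A1, a collagen chain, was called higher with each vector (10.4 to 13.8 CPM with Ad-GFP, 17.6 to 28.1 and 25.2 to 27.9 CPM with the vectors). The markers did not move together. Among those not called, COL1A1 was at 2.69 to 3.04, 3.3 to 5.54 and 3.65 to 5.49 CPM in the same order of groups. PDGFRB was at 12.9 to 13.9, 9.91 to 13 and 8.84 to 12.5 CPM, and LUM at 27.7 to 32.6, 19.9 to 44.5 and 16.2 to 32.7 CPM. POSTN was at no more than 0.11 CPM and DCN at no more than 0.435 CPM in any library. The 8 endothelial markers summed to 40.1 to 43.6, 49.8 to 61.3 and 44.4 to 51.3 CPM, with KDR at 0 and CDH5 at no more than 0.101 CPM. Most of the sum was PECAM1, which was not called, at 38.5 to 41.5, 46.4 to 56.7 and 39.8 to 45.2 CPM. Of the 3 tested, VWF was called higher with each vector, at 0.626 to 1.97 CPM with Ad-HNF4A and 1.5 to 2.66 CPM with Ad-K458R beside 0.272 to 0.483 CPM with Ad-GFP. VWF passed the filter on low counts only through the vector groups, so a lower call was not open to it. The 10 macrophage markers summed to 18.8 to 22.4 CPM, 33.5 to 40.8 CPM and 42.3 to 45.3 CPM, and of 9 tested, 4 were higher with Ad-HNF4A and 5 with Ad-K458R, where 3.16% and 3.32% of all tested genes were higher. CSF1R, LAPTM5, CTSS and FCER1G were called with each vector, CD68 with Ad-K458R, and the other markers with neither. CSF1R, LAPTM5 and FCER1G, at no more than 0.0543, 0.109 and 0.397 CPM with Ad-GFP, passed the filter only through the vector groups. CD68 was the largest part of the sum, at 10.8 to 13.3, 14.8 to 22.6 and 24.4 to 25.2 CPM. The part of fibroblasts, endothelium or macrophages in the rise of IGFBP4 or of INSR was not tested. The 5 adipocyte markers summed to 30.7 to 41.4, 57.8 to 76.5 and 65.7 to 72 CPM, almost all of it CIDEC, which hepatocytes also express, with ADIPOQ, LEP and FABP4 at 0. The 7 skeletal muscle markers summed to 2.14 to 3.54 CPM, with none called and with MYL1 and TNNT3 at 0.

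IGFBP3, the main carrier of IGF in adult blood (ENSG00000146674, chromosome 7, 45912245 to 45921874), had lower values with both vectors that did not pass the test. It stood at 36.5, 33.8 and 39.7 CPM with Ad-GFP, at 30.8, 28.1 and 16.7 CPM with Ad-HNF4A, and at 30.8, 26.6 and 30.4 CPM with Ad-K458R. Every control library was above every other one. On the log2 scale Ad-HNF4A minus Ad-GFP was -0.54 ± 0.19 (SE, adjusted p = 0.2, edgeR), and Ad-K458R minus Ad-GFP was -0.33 ± 0.19 (adjusted p = 0.52). Ad-HNF4A replicate 3 was the lowest, and without it the first was -0.32 (adjusted p = 0.21) and the difference between the vectors went from 0.22 to -0.01.

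IGFBP2, a binding protein of fetal tissues (ENSG00000115457, chromosome 2, 216632828 to 216664436), was low. It stood at 1.94, 1.36 and 1.69 CPM with Ad-GFP, at 2.63, 2.61 and 2.12 CPM with Ad-HNF4A, and at 2.52, 2.75 and 1.95 CPM with Ad-K458R. The vector libraries lay above the controls, by as little as 1.95 against 1.94 CPM. Neither log2 fold change, 0.55 (adjusted p = 0.25, edgeR) nor 0.53 (adjusted p = 0.31), passed the test. IGFBP1, an insulin-repressed gene of liver (ENSG00000146678, chromosome 7, 45888357 to 45893668), had 46 counts in all. Its counts were 4, 0 and 5 with Ad-GFP, 6, 13 and 6 with Ad-HNF4A, and 3, 7 and 2 with Ad-K458R. Fitted without the filter, Ad-HNF4A minus Ad-GFP was 1.67 on the log2 scale (adjusted p = 0.4, edgeR). IGFALS (ENSG00000099769, chromosome 16, 1790413 to 1794971) had 22 counts, 10, 8 and 4 by group, and SPSB3, which overlaps it on the same strand, had 1853.

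Of the receptors, INSR (ENSG00000171105, chromosome 19, 7112255 to 7294034, minus strand) was higher with the vectors, and the difference passed the test for Ad-K458R. Its level was 78.6, 76.2 and 86.1 CPM with Ad-GFP, 91.3, 96.9 and 102 CPM with Ad-HNF4A, and 102, 101 and 104 CPM with Ad-K458R. The controls did not overlap either vector group. The log2 fold change was 0.35 ± 0.07 with Ad-K458R (SE, adjusted p = 0.014, edgeR) and 0.27 ± 0.07 with Ad-HNF4A (adjusted p = 0.058). The call for Ad-K458R was lost without Ad-GFP replicate 1 (adjusted p = 0.069), Ad-GFP replicate 2 (0.071), Ad-K458R replicate 1 (0.06) or Ad-K458R replicate 3 (0.064), with log2 fold changes of 0.31 to 0.35 in those fits. The value for Ad-HNF4A passed with DESeq2 (adjusted p = 0.033) and with library totals as the only scaling (adjusted p = 0.044). Between the vectors the difference was 0.08, with a 95% interval from -0.07 to 0.23 (adjusted p = 0.79, edgeR), so the call with 1 vector and not the other is not a measured difference between them. Without Ad-HNF4A replicate 1 the log2 fold change for Ad-HNF4A was 0.31 (adjusted p = 0.052).

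IGF1R, the receptor for IGF1 and IGF2 (ENSG00000140443, chromosome 15, 98648971 to 98964530), stood at 76.3, 75.7 and 73.3 CPM with Ad-GFP, 66.4, 70 and 58.2 CPM with Ad-HNF4A, and 78.4, 70.2 and 67.3 CPM with Ad-K458R. All 3 Ad-HNF4A libraries were below the controls, yet the log2 fold change of -0.21 did not pass the test (adjusted p = 0.23, edgeR), and the value for Ad-K458R was -0.06 (adjusted p = 0.82). IGF2R (ENSG00000197081, chromosome 6, 159969099 to 160113507) was nearly level apart from 1 library. It stood at 732, 746 and 755 CPM with Ad-GFP, 728, 741 and 608 CPM with Ad-HNF4A, and 790, 757 and 760 CPM with Ad-K458R. Its log2 fold changes were -0.10 (adjusted p = 0.51, edgeR) and 0.05 (adjusted p = 0.85). AIRN, the antisense RNA gene within IGF2R, was at 0 counts. Ad-HNF4A replicate 3 thus had the lowest level of the 9 libraries for IGFBP3, IGF1R and IGF2R, and without it the log2 fold changes of the receptors over Ad-GFP were -0.14 and -0.02.

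**Figure D1:**
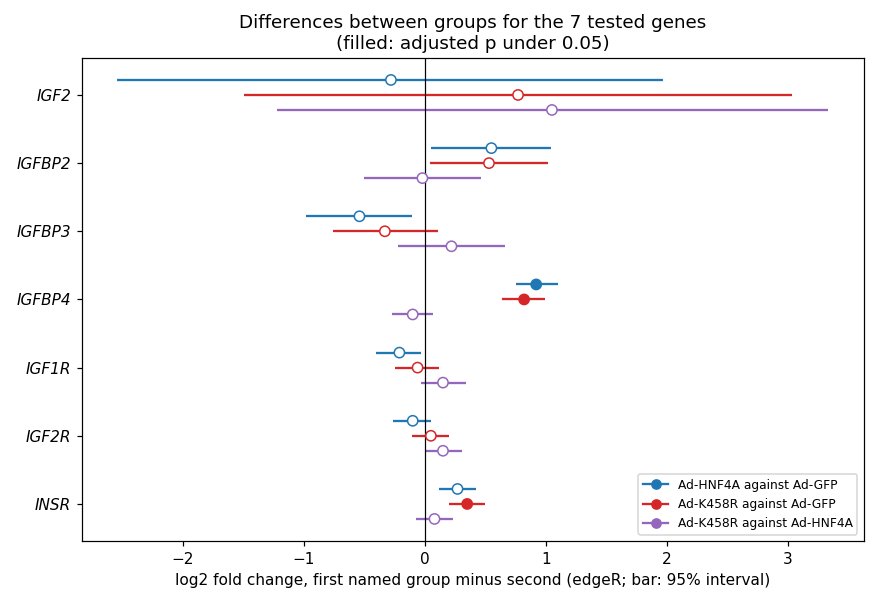
Log2 fold change (horizontal axis) of the 7 tested genes for Ad-HNF4A over Ad-GFP (blue), Ad-K458R over Ad-GFP (red) and Ad-K458R over Ad-HNF4A (purple), with 95% intervals of each single difference as bars and filled points where the adjusted p was under 0.05. IGFBP4 is filled for both vectors at 0.92 and 0.82 and INSR for Ad-K458R at 0.35, and the bars of IGF2 are the widest of the 7.

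Compared per length, on the deposited FPKM scale, the ligand IGF2 and its clearance receptor IGF2R were the most abundant of the 10, at means of 51.5 and 46.4 FPKM over the 9 libraries. Their order was not fixed: IGF2 exceeded IGF2R in 5 of 9 libraries, and its range of 14 to 94.2 FPKM enclosed the 38.6 to 50.4 FPKM of IGF2R. IGFBP4 followed at 12.6 FPKM and INSR at 7.51 FPKM, IGFBP4 being higher in 9 of 9 libraries although the ranges overlapped. IGFBP3 and IGF1R, at 2.95 and 2.87 FPKM, could not be ordered, with IGFBP3 higher in 5 of 9 libraries. IGFBP2 was at 0.297 FPKM, and IGFBP1, IGFALS and IGF1 were at 0.0654, 0.0245 and 0.0127 FPKM, where the ranges overlapped. The gene length behind the FPKM was 2200 bases for IGFBP4, as in the exons of GENCODE 29, but differed from them for the other 9 genes, for IGFBP3 at 10287 against 4571 bases. The order of the means was the same for all 10 genes with GENCODE 29 lengths.

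Other genes of the pathway were taken in 5 lists, to be read against the shares of all tested genes called higher (3.16% with Ad-HNF4A, 3.32% with Ad-K458R) and lower (0.305% and 0.234%). Of 13 further extracellular parts of the system, 6 had enough counts, and 1 was lower with Ad-HNF4A and none with Ad-K458R, with medians of -0.14 and -0.03 (log2). The lower gene was ADAM9, a membrane protease with a role in cleaving IGF binding proteins. It stood at 473, 454 and 448 CPM with Ad-GFP and at 365, 403 and 317 CPM with Ad-HNF4A (log2 fold change -0.34 ± 0.08, SE, adjusted p = 0.043, edgeR). That call was lost when Ad-GFP replicate 1, 2 or 3 or Ad-HNF4A replicate 1 or 3 was left out (adjusted p = 0.09 to 0.13). It was also lost with limma-voom (adjusted p = 0.05), with limma-trend on log2 FPKM (0.082 and 0.077) and in a fit of 6 libraries (0.097). STC2, an inhibitor of PAPPA, was level at 82.7 to 92.1 CPM, and PAPPA itself was at 0.489 to 1.68 CPM.

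Signalling genes downstream of the receptors showed no call: of 20 tested among 22, none passed with either vector, with medians of -0.04 and -0.03. With Ad-HNF4A the lowest value was that of SH2B2, an adaptor of the insulin receptor, at 0.5 to 0.907 CPM beside 1.03 to 1.5 CPM. The highest with Ad-K458R was that of IRS2, an insulin receptor substrate, at 16.2 to 19.8 CPM beside 12.7 to 14.9 CPM (log2 fold change 0.39, adjusted p = 0.11, edgeR). IRS1, its relative, was between 141 and 157 CPM throughout.

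Growth hormone drives IGF1 and IGFALS in liver through JAK2 and STAT5B, and all 9 genes listed for this axis were tested. CISH, a feedback inhibitor induced by STAT5, was the 1 gene called, with Ad-HNF4A, and the list had medians of 0.03 and 0.15. It stood at 0.397, 0.76 and 0.772 CPM with Ad-GFP, 1.63, 1.8 and 1.41 CPM with Ad-HNF4A, and 1.37, 1.62 and 1.34 CPM with Ad-K458R. With the Ad-GFP library at 0.397 CPM too low, CISH passed the filter on low counts only with the help of the vector groups. Both vector groups were above the controls, with adjusted p = 0.039 and 0.064 (edgeR). The first was lost whichever of the 6 libraries was left out (adjusted p = 0.066 to 0.11) and with a replicate block (0.068). It was also lost in a fit of the 6 libraries alone (adjusted p = 0.1) and with limma-trend on log2(FPKM + 1) (0.058). The growth hormone receptor GHR was detected at 11.9 to 18.8 CPM and STAT5B at 34.1 to 38.3 CPM.

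Of 11 genes at the IGF2 locus or known to regulate IGF2, 8 were tested, and the medians were -0.08 and -0.10. HMGA2, an architectural chromatin protein upstream of IGF2 in growth control, was lower with Ad-K458R, at 159, 173 and 155 CPM beside 207, 229 and 193 CPM (log2 fold change -0.37 ± 0.08, SE, adjusted p = 0.023, edgeR). Without Ad-GFP replicate 1 or 2, or Ad-K458R replicate 1 or 3, it did not pass (adjusted p = 0.063 to 0.11). With limma-trend on log2 FPKM it did not pass either (adjusted p = 0.073 and 0.067). The 3 oncofetal IGF2 mRNA-binding protein genes were expressed in every library, IGF2BP1 at 371 to 411 CPM, IGF2BP2 at 107 to 120 CPM and IGF2BP3 at 123 to 143 CPM, and none was called. Their levels gave no gap between libraries as IGF2 did.

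FOXO factors are held out of the nucleus when insulin or IGF receptors signal, and they drive several liver genes that insulin represses. The list held 4 FOXO genes and 12 genes of the latter or related kind, IRS2 of the signalling list among them, and 15 of the 16 were tested. With Ad-HNF4A 3 were called higher and with Ad-K458R 4, beside 3.16% and 3.32% of all tested genes. None was lower, beside 0.305% and 0.234%, and the medians were 0.23 and 0.12. The calls with each vector include G6PC and PCK1, which had 0 and 2 counts with Ad-GFP. Both passed the filter on low counts only through the vector groups, so a lower call was not open to them. The count of calls is therefore no measure of the list. FOXO4 stood at 5.21, 5.21 and 3.86 CPM with Ad-GFP, 9.7, 8.17 and 13.5 CPM with Ad-HNF4A, and 9.88, 14.6 and 16 CPM with Ad-K458R (adjusted p = 0.026 and 0.0042, edgeR). Its call with Ad-HNF4A was lost when Ad-GFP replicate 1, 2 or 3 or Ad-HNF4A replicate 1 or 3 was left out (adjusted p = 0.063 to 0.096), and with a replicate block (0.062). It was also lost with limma-voom (adjusted p = 0.058) and with limma-trend on log2(FPKM + 1) (0.069). FOXO1 was at 24.8, 22.9 and 28.1 CPM with Ad-K458R beside 18.6, 20.2 and 17.4 CPM (adjusted p = 0.041, edgeR), which did not pass when Ad-GFP replicate 1, 2 or 3 or Ad-K458R replicate 1 or 3 was left out (adjusted p = 0.056 to 0.17), or with a replicate block (0.099). Nor did FOXO1 pass in a fit of the 6 libraries of that comparison (adjusted p = 0.062, edgeR).

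The gluconeogenic genes G6PC and PCK1 of that list were nearly silent in the controls. G6PC, whose product releases free glucose from glucose-6-phosphate, had no count with Ad-GFP and was at 2.38, 3.19 and 6.65 CPM with Ad-HNF4A and 6.53, 2.39 and 6.46 CPM with Ad-K458R. Against a floor of 3 counts over the Ad-GFP group, the means were at least 83.9-fold and 106-fold higher (adjusted p = 0.021 and 0.014, edgeR). Without Ad-GFP replicate 1, 2 or 3 the first did not pass (adjusted p = 0.051 to 0.057), and without Ad-K458R replicate 1 nor did the second (adjusted p = 0.05). Without the filter on low counts the adjusted p-values were 0.086 and 0.077. PCK1, which encodes the cytosolic phosphoenolpyruvate carboxykinase, had 2 counts with Ad-GFP, 37 with Ad-HNF4A and 48 with Ad-K458R, ratios of 21.5 (95% interval 5.55 to 184, counting error only) and 25.4 (6.66 to 216), with adjusted p = 0.011 and 0.0053 (edgeR). IGFBP1, the insulin-repressed member of the IGF system, had 9, 25 and 12 counts in the same groups. None of the genes of the 5 lists was called between the vectors.

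The genes whose log2 CPM followed that of IGFBP4 most closely over the 9 libraries were UCN2, TMEM91 and GAL, each at a Pearson correlation of 0.986. UCN2 encodes a peptide of the corticotropin-releasing factor family and GAL the neuropeptide galanin. GAL stood at means of 1.93, 24.2 and 26.4 CPM in the 3 groups, TMEM91 at 0.62, 2.81 and 2.74 CPM, and UCN2 at 0, 0.612 and 0.616 CPM. For INSR the nearest were BTN1A1 and CMAHP (0.988 each) and LINC01451 (0.984), whose group means were 0.661, 3.15 and 4.94 CPM, 0.11, 1.14 and 1.61 CPM, and 0.063, 0.952 and 1.57 CPM. The correlation of IGFBP4 with INSR was 0.870. These correlations describe 9 libraries that include the differences between groups, and no gene was tested in this way.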

How the data were processed

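Read counts and FPKM of each human gene were in 1 table that the authors deposited, per its file headers. The submitters' processing notes name Trimmomatic and the mouse build mm10. Aligner, counter and handling of mouse reads: not given in the sources used here. Mouse RNA that matched a human gene could thus be counted with it. Of the gene identifiers, 98.5% were found in GENCODE 29, and positions, printed as in the table, were identical for 94.7% of those (GRCh38). Groups came from the titles and, for 1 library with a misspelt title, from the description, because the treatment field changes its numbers within groups. RNA was captured with oligo(dT), per the labels' protocols.

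Counts were tested with the robust quasi-likelihood test of edgeR 4.0.16 in R 4.3.3: 1 fit of 9 libraries, TMM scaling, edgeR's filter on low counts and 3 two-sided comparisons, tested on simulated data first. Library totals included genes under the filter. Adjusted p-values are Benjamini-Hochberg over 16697 genes, and 95% intervals are for each difference alone. Deposited FPKM served for levels between genes. Alternatives were other scalings and filters, DESeq2 1.42.0, limma-voom and limma-trend on log2 FPKM (limma 3.58.1), fits of 6 libraries, a replicate block, and leaving out each library. The same alternatives for called pathway genes were chosen after seeing the data.

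The 10 genes, the 5 pathway lists and the tests were chosen with earlier results of these data known. The rule named all 10 genes and, of each list, up to 4 genes called against Ad-GFP or, without a call, the extremes. It also named the 3 genes with the highest correlation for each called gene. Other genes were named for their role, as markers or as overlapping genes. Promoter sequences are from RefSeq. Replicates of a group differed beyond counting noise (chi-square per degree of freedom of at least 10.7), so none was a copy of another library. This does not show that they came from different tumours.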

Additional observations from a re-analysis of the deposited data

How the results depend on the processing

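IGFBP4 was called with both vectors under all 17 alternatives run for each comparison. The number of the 7 genes called with Ad-HNF4A rose to 2 with library totals only and with DESeq2, both by adding INSR. With Ad-K458R it ran from 1 to 2 as single libraries were left out, INSR being the gene lost. Left-out libraries also reversed signs of differences that passed no test: IGF2 for Ad-HNF4A over Ad-GFP ran from -1.56 to 1.04 (log2), IGFBP2 between the vectors from -0.12 to 0.11, and IGFBP3 between the vectors from -0.01 to 0.39. Fewer samples enter such fits. Of the pathway calls against Ad-GFP, those of ADAM9, CISH, HMGA2, FOXO1, FOXO4 (with Ad-HNF4A) and G6PC were also lost under left-out libraries, and PCK1 kept its calls there. With limma-trend on log2(FPKM + 1) PCK1 did not pass with either vector (adjusted p = 0.17 and 0.12), nor did G6PC with Ad-HNF4A (0.077). For the 7 IGF-system genes alone, of 357 values under the alternatives 344 kept their direction and side of the threshold, 7 reversed, 4 no longer passed and 2 newly passed. No scaling moved the median of all tested genes beyond 0.028 (log2). Same-numbered libraries of different groups had correlated deviations of -0.0379 to 0.0526, so the numbers were not taken to pair them. With the replicate number as a block, 1, 2 and 0 of the 7 genes were called in the comparisons of Ad-HNF4A with Ad-GFP, Ad-K458R with Ad-GFP and the vectors with each other. For IGF1, IGFBP1 and IGFALS the depth, at most 13 counts in a library, limits what could be detected.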
